A study of Mus musculus with 8 samples.

Results

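Cell cycle and mitosis genes were examined in single-nucleus RNA sequencing of mouse liver. The 45 genes were taken by symbol from a list of cycle genes, out of the 32285 genes in each file. No cut on their values was used, but the genes were chosen with earlier results of these data known. They were read in 4 roles: 11 genes of DNA replication (S phase), 21 genes of mitosis, 10 regulators of entry into the cycle (the G1/S step) and 3 inhibitors of cyclin-dependent kinases (CDKs). All 45 symbols were in the files.

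Livers came from 8 male DIAMOND mice, a cross of 129A1/SvIm and C57BL/6J that develops fatty liver disease and liver tumours on a Western diet. Every mouse in the 3 groups had a high-fat Western diet with fructose and glucose in the water for at least 36 weeks, so no group had standard chow alone. The RD groups went back to standard chow after 36 weeks, and the WD group stayed on the Western diet for 48 weeks. RD tumour has 2 mice with tumours, RD no tumour has 3 mice with no detectable hepatocellular carcinoma, and WD tumour has 3 mice with tumours. The labels do not say whether the frozen piece of liver held tumour, and their statements on age disagree, so age is not given. Each mouse gave 1 library of snap-frozen liver made with 10x 3′ chemistry, version 3.1. Diet and tumour differ together between WD tumour and RD no tumour and cannot be told apart.

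A cell that divides passes through a set order of phases. Cyclin D with CDK4 or CDK6 releases E2F factors, which switch on the replication genes. The mitotic genes are transcribed later, in G2 and mitosis, and the inhibitors p21 (Cdkn1a), p16 (part of Cdkn2a) and p18 (Cdkn2c) hold the kinases back. Most hepatocytes of an adult liver are outside the cycle, while blood cell precursors and some immune cells divide.

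Promoters of the members are shown first, since the roles differ in the short words they hold. RefSeq promoters of build GRCm38.p6, 250 bases before to 50 after the first listed start, were found for 38 members. The others are Mcm4, Ccne2, Aurkb, Ccna2, Tpx2, Ccnd2 and Ccnd1. The cell cycle homology region (CHR), the letters TTTGAA on either strand, is the element that the DREAM and MuvB complexes are known to read at mitotic genes. It was present in 14 of 18 mitotic promoters, 1 of 10 S-phase, 1 of 7 G1/S and 0 of 3 inhibitor promoters, and in 18.1% of 27025 promoters. CCAAT on either strand was present in 16 of 18 mitotic, 9 of 10 S-phase, 3 of 7 G1/S and 0 of 3 inhibitor promoters, against 37.9% of all promoters. An E2F word (TTTGGCGC, TTTCCCGC, TTTGCCGC or TTTCGCGC, either strand) was present in 5 of 10 S-phase, 2 of 18 mitotic, 2 of 7 G1/S and 1 of 3 inhibitor promoters, against 2.32% of all. A match describes letters only and does not show a site in use.

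The following stretches are the 150 bases before the start of 4 mitotic genes, on the strand of the gene, with CHR letters in capitals (TTCAAA is the same word on the other strand). Cdk1 is at chr10:69352913-69353062 (minus strand), Top2a at chr11:99024190-99024339 (minus), Kif11 at chr19:37376232-37376381 (plus) and Mki67 at chr7:135716380-135716529 (minus).
Cdk1: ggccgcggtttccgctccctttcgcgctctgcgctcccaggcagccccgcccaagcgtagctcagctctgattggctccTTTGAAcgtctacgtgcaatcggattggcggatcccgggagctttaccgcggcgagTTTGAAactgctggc
Top2a: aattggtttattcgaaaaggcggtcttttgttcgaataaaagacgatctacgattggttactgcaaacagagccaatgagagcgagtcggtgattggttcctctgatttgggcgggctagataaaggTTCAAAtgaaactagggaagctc
Kif11: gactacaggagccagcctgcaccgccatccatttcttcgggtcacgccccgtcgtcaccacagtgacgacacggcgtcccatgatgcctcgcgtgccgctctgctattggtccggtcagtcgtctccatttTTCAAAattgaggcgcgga
Mki67: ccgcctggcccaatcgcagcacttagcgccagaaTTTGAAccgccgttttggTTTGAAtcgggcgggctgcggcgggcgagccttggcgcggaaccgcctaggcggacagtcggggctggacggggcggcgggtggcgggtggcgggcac

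For contrast, the same 150 bases are shown for the replication genes Mcm6 at chr1:128359706-128359855 (minus) and Pola1 at chrX:93632156-93632305 (minus), with E2F words in capitals, including overlapping ones. Those of the inhibitor gene Cdkn2c at chr4:109666757-109666906 (minus) hold none of the words and have no capitals.
Mcm6: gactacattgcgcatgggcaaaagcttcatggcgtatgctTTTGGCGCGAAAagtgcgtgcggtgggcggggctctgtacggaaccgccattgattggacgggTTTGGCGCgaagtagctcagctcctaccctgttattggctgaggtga
Pola1: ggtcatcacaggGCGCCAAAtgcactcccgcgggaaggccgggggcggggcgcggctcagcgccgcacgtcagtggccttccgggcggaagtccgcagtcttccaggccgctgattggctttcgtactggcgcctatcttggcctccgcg
Cdkn2c: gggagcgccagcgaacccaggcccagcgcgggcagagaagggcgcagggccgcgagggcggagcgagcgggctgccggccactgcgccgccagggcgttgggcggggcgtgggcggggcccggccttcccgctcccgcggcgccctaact

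Levels are given in CPM, the unique molecular identifiers (UMIs, 1 per captured RNA molecule) of a gene in every 1000000 UMIs of the library, over barcodes with at least 300 detected genes. These were 79446 of 80575 barcodes, 6048 to 20000 per library, with 17948627 to 34363108 UMIs and a median of 1120 to 2656 UMIs per barcode. RD tumour 1 has exactly 20000 barcodes and stands apart in most values, so it is given separately. WD tumour 1 and 3 had a median mitochondrial share of 7.91% and 7.51%, and the other 6 libraries had 1.30% to 3.28%. All 11 hepatocyte markers were detected in every library. RD tumour 2 held 377 CPM of pancreatic acinar markers, against 3.55 to 10.0 CPM in the others. A pair of libraries shared at most 62 barcodes.

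Cycle genes were high in 3 of the 8 livers, and these 3 came from 3 different groups. The summed mitotic genes were at 726 CPM in RD tumour 1 and 37.2 CPM in RD tumour 2. They were at 225, 57.6 and 33.4 CPM in RD no tumour 1 to 3, and at 25.2, 331 and 21.9 CPM in WD tumour 1 to 3. One library of each group, RD tumour 1, RD no tumour 1 and WD tumour 2, was therefore far above its fellows, and every pair of groups overlapped.

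The summed S-phase genes had the same 3 libraries on top with a narrower spread. They were at 622 and 89.8 CPM in RD tumour, at 141, 97.2 and 78.7 CPM in RD no tumour, and at 92.0, 195 and 89.9 CPM in WD tumour. Among the 7 libraries without RD tumour 1, the highest mitotic sum was 15.1 times the lowest, against 2.48 times for S phase, 2.80 times for the G1/S regulators and 2.17 times for the inhibitors. Group means of the mitotic sum were 105 ± 104 CPM (SD, n = 3) in RD no tumour, 126 ± 178 CPM (SD, n = 3) in WD tumour and 382 ± 487 CPM (SD, n = 2) in RD tumour. In each group the SD was close to the mean or above it. A library sum alone does not tell fewer cells of a dividing type from less RNA per cell. Counts of nuclei with mitotic RNA are given below.

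**Figure D1:**
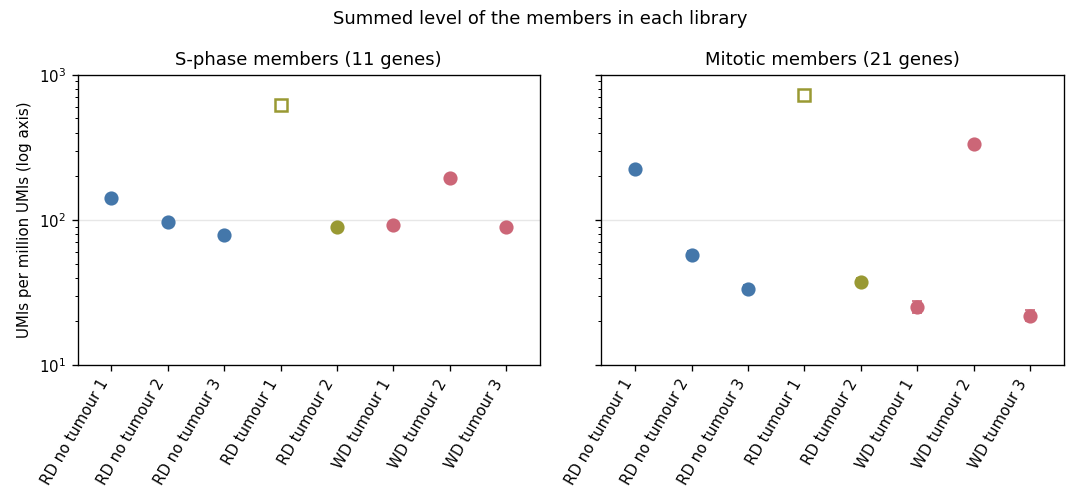
Summed level of the 11 S-phase members (left) and 21 mitotic members (right) in each library, in CPM on a log axis, with 95% counting intervals, mostly hidden by the points, and RD tumour 1 as an open square. RD tumour 1, RD no tumour 1 and WD tumour 2 lie highest for the mitotic genes at 726, 225 and 331 CPM.

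The order of the libraries was shared by nearly all mitotic and S-phase members. Among the 7 libraries, WD tumour 2 was highest and RD no tumour 1 second for 35 of the 44 members tested, against 13.9% of all 17840 genes tested. By role this held for 10 of 11 S-phase, 19 of 20 mitotic, 6 of 10 G1/S and 0 of 3 inhibitor genes. It also held for 26 of 42 other S-phase genes, 47 of 56 other mitotic genes and 11 of 30 other cycle regulators of a wider list. RD tumour 1 was above all 7 others for 38 of 44 members, against 30.6% of genes. These orders are read within the libraries and are not a test of the groups.

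**Figure D2:**
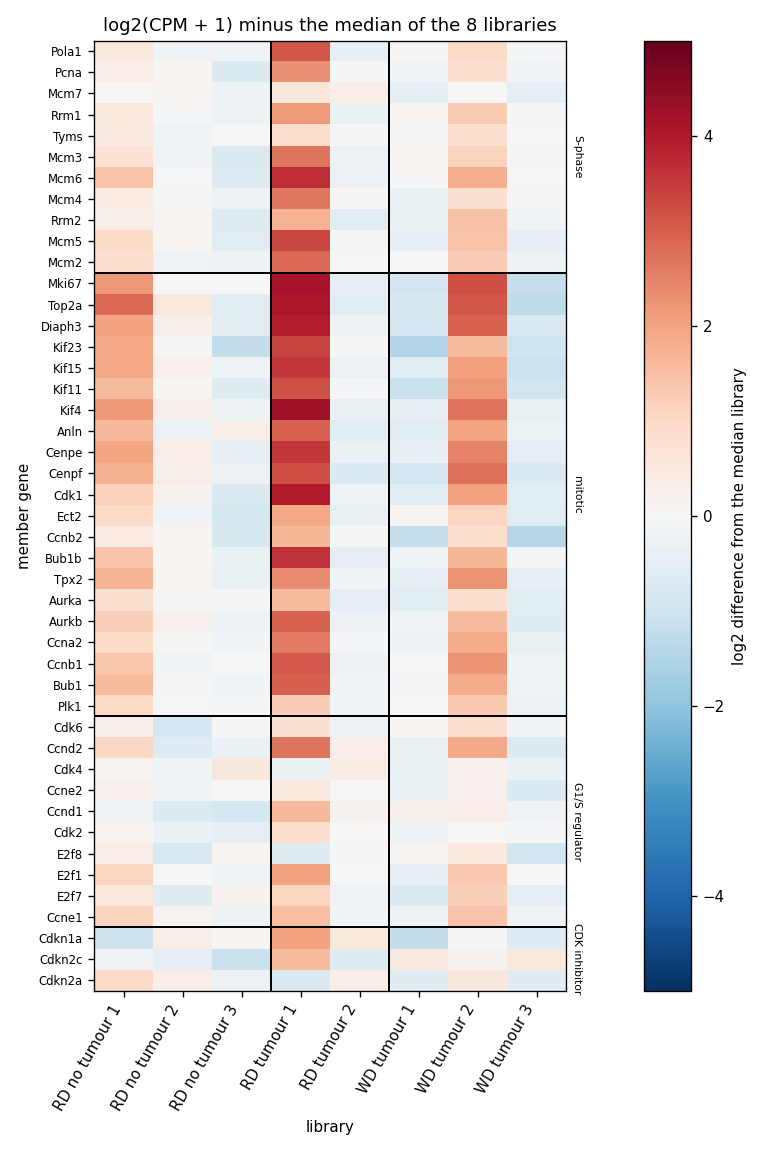
Level of every member (lines) in each library (columns) as log2(CPM + 1) minus the member's median over the 8 libraries, with members grouped by role and red for higher. RD tumour 1, RD no tumour 1 and WD tumour 2 are red over the mitotic and most S-phase genes, while Cdk4 and E2f8 differ from that pattern.

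Markers of erythroid cells, granulocytes and macrophages were also high in these 3 libraries, apart from the erythroid list without globins in RD tumour 1. Erythroid markers without the globins summed to 102 CPM in RD no tumour 1 and 217 CPM in WD tumour 2, against 25.2 to 76.9 CPM in the other 5 of the 7 libraries and 45.2 CPM in RD tumour 1, which lies within that range. With the globins counted they summed to 6225, 7656 and 30379 CPM in RD tumour 1, RD no tumour 1 and WD tumour 2, against 1193 to 4750 CPM in the other 5 libraries. Granulocyte progenitor markers (Mpo, Elane, Prtn3 and Ctsg) summed to 126 CPM in RD no tumour 1, 32.4 CPM in RD tumour 1 and 34.2 CPM in WD tumour 2, against 1.49 to 6.07 CPM in the other 5 libraries. The 12 neutrophil markers summed to 2981 CPM in RD tumour 1, 992 CPM in RD no tumour 1 and 243 CPM in WD tumour 2, against 33.2 to 120 CPM elsewhere. The 17 macrophage markers summed to 1963, 1656 and 1445 CPM in RD tumour 1, RD no tumour 1 and WD tumour 2, against 448 to 858 CPM elsewhere. None of the markers in these 4 lists was at 0 in any of the 3 high libraries. Other blood cell lists did not all follow. In RD tumour 1, RD no tumour 1 and WD tumour 2, T and NK cell markers summed to 111, 220 and 181 CPM, against 82.8 to 184 CPM elsewhere. B cell markers were at 75.0, 164 and 150 CPM, against 75.0 to 160 CPM. Plasma cell markers were at 11.6, 9.26 and 6.27 CPM, against 3.63 to 18.6 CPM. Dendritic markers were higher, at 150, 129 and 166 CPM against 92.7 to 123 CPM. Of the classes described below, macrophage-gated nuclei were 24.95%, 32.8% and 41.9% of nuclei in these 3 libraries, against 9.57% to 19.1% in the other 5. Hepatocyte-gated nuclei were 6.12%, 14.6% and 22.2%, against 36.9% to 60.2%. The part of these cells in the library levels of the cycle genes was not tested.

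Among the replication genes, Pola1, the catalytic subunit of DNA polymerase alpha, was at 332 and 27.8 CPM in RD tumour 1 and 2. It was at 55.5, 33.6 and 33.2 CPM in RD no tumour and at 38.9, 73.5 and 36.7 CPM in WD tumour. RD tumour 1 was far above all others, and the remaining groups overlapped. Pcna, the sliding clamp of DNA polymerases, was at 88.0 and 15.8 CPM in RD tumour, 21.4, 18.3 and 10.3 CPM in RD no tumour, and 15.1, 30.7 and 14.8 CPM in WD tumour. Reads of Pcna can also come from its named pseudogenes, as those of Tyms, Ccnb1, Ccnb2 and Kif4 can.

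Mcm7, a subunit of the MCM replicative helicase, varied least of the replication genes named here. It was at 27.9 and 23.7 CPM in RD tumour, 18.9, 20.2 and 15.7 CPM in RD no tumour, and 13.4, 18.5 and 13.4 CPM in WD tumour. Mcm7 overlaps genes on the opposite strand, Cops6 and Ap4m1. Its partner Mcm3 was at 28.1 and 2.72 CPM in RD tumour, 6.35, 2.96 and 1.71 CPM in RD no tumour, and 3.79, 8.84 and 3.25 CPM in WD tumour. The 3 high libraries stand out for Mcm3 and hardly at all for Mcm7. Rrm1 and Rrm2 are the subunits of ribonucleotide reductase, which makes the DNA building blocks. Rrm1 was at 30.5 and 4.81, then 9.33, 5.78 and 5.03, then 6.74, 16.6 and 5.73 CPM in the groups in the same order. Rrm2 was at 15.9 and 2.46, then 5.25, 4.59 and 2.30, then 3.01, 12.9 and 3.66 CPM.

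Among the mitotic genes, Mki67, the proliferation marker that coats mitotic chromosomes, was at 112 and 3.82 CPM in RD tumour. It was at 28.2, 5.56 and 5.53 CPM in RD no tumour and at 2.40, 59.8 and 1.95 CPM in WD tumour. WD tumour thus held the lowest values and, apart from RD tumour 1, the highest. Top2a, the topoisomerase that untangles chromosomes, was at 99.0 and 3.27 CPM in RD tumour, 42.8, 7.64 and 3.07 CPM in RD no tumour, and 2.51, 50.9 and 1.55 CPM in WD tumour. Diaph3, an actin-nucleating formin of cell division, was at 92.5 and 4.11, then 23.5, 6.31 and 3.14, then 2.28, 45.6 and 2.68 CPM.

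Cdk1, the kinase that drives entry into mitosis, was at 33.2 and 0.92 CPM in RD tumour, 3.81, 1.46 and 0.31 CPM in RD no tumour, and 0.50, 7.86 and 0.49 CPM in WD tumour. Its partner Ccnb1 (cyclin B1) was at 11.1 and 0.18, then 2.74, 0.31 and 0.47, then 0.39, 5.73 and 0.24 CPM. For both genes the low libraries of the 3 groups overlap, and the high library of each group exceeds all of the low ones. Plk1, a mitotic kinase, had the fewest UMIs of the mitotic genes, 245 over the 8 libraries. Bub1, a spindle checkpoint kinase with 532 UMIs, was the 1 member that did not pass the low-count filter of the comparison of WD tumour with RD no tumour.

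The G1/S regulators followed the 3 libraries only in part. Ccnd2 (cyclin D2) did, with 114 and 21.9 CPM in RD tumour, 35.6, 10.5 and 13.2 CPM in RD no tumour, and 12.9, 66.3 and 10.2 CPM in WD tumour. Cdk6 was at 172 and 83.7 CPM, then 122, 55.2 and 93.5 CPM, then 110.0, 180 and 93.3 CPM. Cdk4, which acts at the same step, was at 18.5 and 30.5, then 25.6, 21.3 and 34.8, then 18.5, 27.5 and 18.5 CPM, and its highest library was RD no tumour 3. E2f8, a repressor of the E2F family, was at 5.56 and 8.23, then 11.6, 4.94 and 10.1, then 9.75, 13.1 and 4.19 CPM.

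Ccnd1 (cyclin D1), the cyclin that links growth signals to the cycle, had the same library highest in each group, with smaller gaps. Its level was 30.6 and 10.5 CPM in RD tumour, 8.10, 5.47 and 4.56 CPM in RD no tumour, and 11.6, 11.95 and 8.21 CPM in WD tumour. All WD tumour values were above all RD no tumour values. Cdkn2c was at 20.6 and 3.75 CPM in RD tumour, 5.32, 4.15 and 2.33 CPM in RD no tumour, and 8.75, 7.11 and 9.31 CPM in WD tumour, again with no overlap between WD tumour and RD no tumour. These were the only 2 of the 44 members tested with all WD tumour libraries higher, against 6.88% of genes. No member had all of them lower, against 3.80% of genes.

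For none of the 3 inhibitors were the 3 high libraries all the highest of their groups. For Cdkn2c, WD tumour 2 was the lowest of its group. Cdkn1a, the p53 target that encodes p21, was at 111 and 38.6 CPM in RD tumour, 12.7, 32.6 and 28.9 CPM in RD no tumour, and 11.03, 24.8 and 16.8 CPM in WD tumour. Both RD tumour libraries were above the other 6. Cdkn2a, which encodes p16 and Arf, was at 1.02 and 3.05, then 5.46, 3.18 and 1.74, then 1.17, 3.91 and 1.18 CPM, and the groups overlapped.

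**Figure D3:**
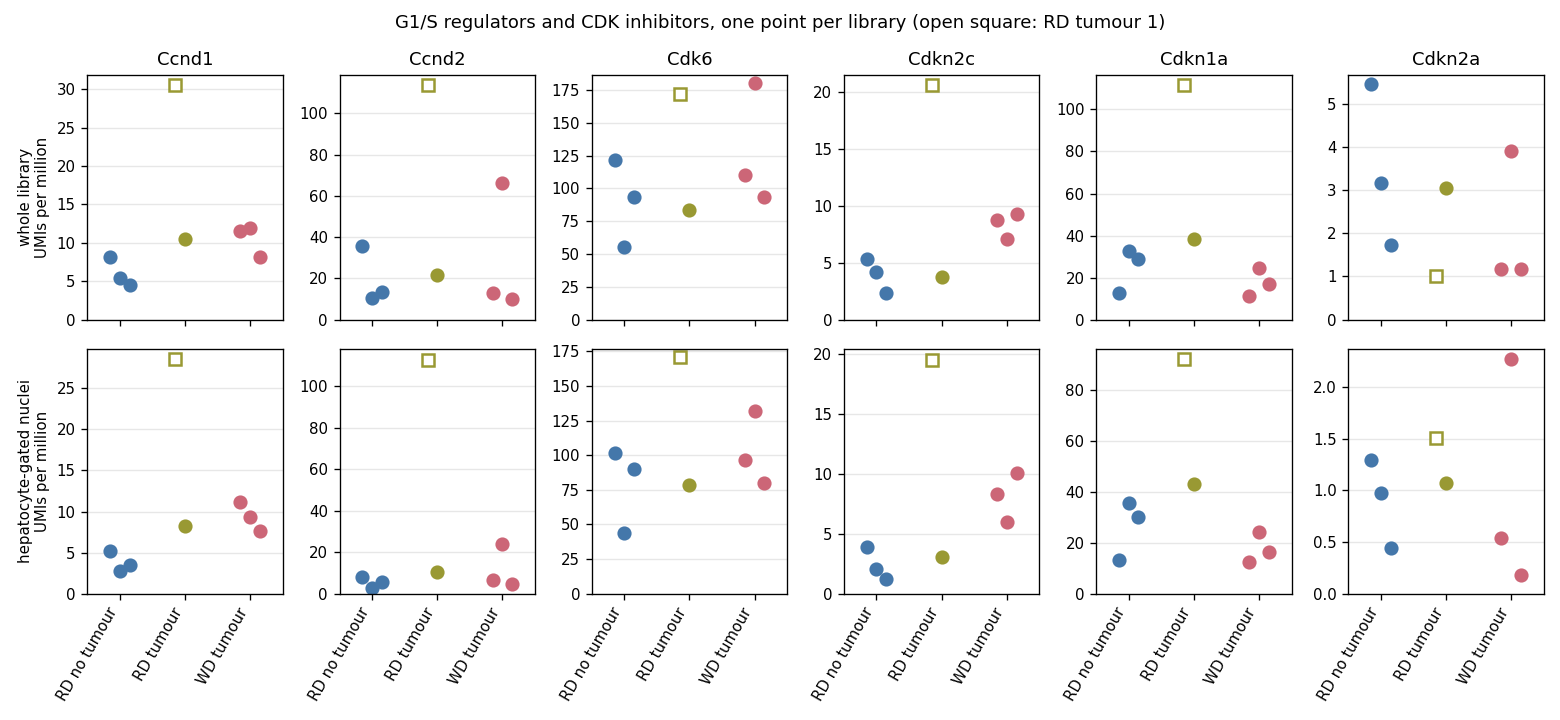
Levels of 3 G1/S regulators (Ccnd1, Ccnd2, Cdk6) and the 3 inhibitors in CPM, over whole libraries (top) and hepatocyte-gated nuclei (bottom), with 1 point per library, groups along the axis and RD tumour 1 as an open square. WD tumour lies above RD no tumour without overlap for Ccnd1 and Cdkn2c at the top and at the bottom.

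No member passed the test between WD tumour and RD no tumour. Counts summed per library were tested with edgeR's quasi-likelihood test and Benjamini-Hochberg adjustment over 17840 genes, with a threshold of 0.05 on the adjusted p. The test called 0 genes of all (0.00%) and 968 were at an unadjusted p under 0.05, among them 2 members, Ccnd1 and Cdkn2c. DESeq2 called 152 genes (0.852%) and 0 members. The p-values measure the spread between these mice. The median log2 difference of the members was 0.24 and 34 of 44 were higher in WD tumour, against a median of -0.01 and 48.9% of all genes. Without WD tumour 2 the members' median was -1.18 and 4 of 44 were higher. Without RD no tumour 1 it was 0.97, and without both libraries, an alternative chosen after seeing the data, it was -0.49.

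Single members show the same spread in that comparison. The log2 difference of Cdkn2c was 1.07 ± 0.33 (SE) with an edgeR adjusted p of 0.779, and that of Ccnd1 was 0.78 ± 0.28 with an adjusted p of 0.851. Both differences kept their sign when any 1 library was left out. Mki67 differed by 0.66 ± 1.36, Cdk1 by 0.64 ± 1.26 and Ccnb1 by 0.82 ± 1.31, with standard errors larger than the differences. Without WD tumour 2 these were -2.55, -1.85 and -1.85. Rrm2 differed by 0.64 ± 0.61, Mcm3 by 0.50 ± 0.57, Rrm1 by 0.49 ± 0.45, Ccnd2 by 0.55 ± 0.80 and Cdk6 by 0.46 ± 0.35. Cdkn1a differed by -0.57 ± 0.44 and Cdkn2a by -0.76 ± 0.61. Of 128 other cycle genes tested, 0 passed and 1 was at an unadjusted edgeR p under 0.05, against 968 of all 17840 genes. Those with the lower p values were Tk1 (thymidine kinase) with 0.66 ± 0.16, Wee1, a kinase that restrains Cdk1, with 0.94 ± 0.46, and, lower in WD tumour, Helb with -0.36 ± 0.16. Wee1 and Helb were not under 0.05 before adjustment.

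The comparisons with RD tumour rest on RD tumour 1. They share the RD tumour libraries and were fitted together over all 8 libraries. For RD tumour against RD no tumour edgeR called 0 of 19087 genes (0.00%), with 1279 at an unadjusted p under 0.05 and 64 called by DESeq2 (0.335%), none a member. The members' median log2 difference was 1.63 with 42 of 45 higher, and without RD tumour 1 it was -0.78 with 6 of 45 higher. For WD tumour against RD tumour edgeR also called 0 genes (0.00%), with 1443 at an unadjusted p under 0.05 and 109 called by DESeq2 (0.571%), none a member. There the median was -1.39 with 2 of 45 higher, and 1.02 without RD tumour 1.

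With RD tumour 1 alone for its group, whose spread is then assumed to be that of the others, edgeR called 10 members higher than in RD no tumour, against 10.7% of genes, and 8 lower in WD tumour, against 10.3%. Cdk1 differed by 3.24 ± 1.66 between RD tumour and RD no tumour, and by -1.08 without RD tumour 1. Mcm5, another helicase subunit, differed by 2.84 ± 1.37, and by -0.71 without that library. Cdkn1a differed by 1.54 ± 0.59 from RD no tumour (adjusted p 0.612), and WD tumour differed from RD tumour by -2.12 ± 0.60 (edgeR adjusted p 0.590). Of 135 other cycle genes tested, 0 passed in either comparison. Hells, a chromatin remodeller of replicating cells, had the lowest p among those higher in RD tumour, at 1.80 ± 0.52 against RD no tumour and -1.75 ± 0.52 for WD tumour against RD tumour. Next to it against RD no tumour was Atad2, a chromatin factor of dividing cells, at 2.31 ± 0.89, and lower were Brca2, a DNA repair gene, at -1.17 ± 0.40 and the kinetochore gene Spc24 at -0.58 ± 0.49. For WD tumour against RD tumour these places were held by Tfdp2, an E2F partner, at -0.70 ± 0.26 and, higher in WD tumour, by Brca2 at 0.89 ± 0.39 and E2f3 at 0.52 ± 0.34.

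Nuclei were then assigned to cell classes by markers that include none of the cycle genes. A nucleus went to the class with most of its markers detected, at least 2, and to hepatocytes where no other class reached 2 and at least 3 hepatocyte markers were detected. Classes are called gated because free RNA can fill a gate. Albumin, a hepatocyte product, was nearly as high or higher in other gates: its level relative to hepatocyte-gated nuclei of the same library had a median of 80.1% in cholangiocyte-gated, 87.5% in macrophage-gated, 86.6% in erythroid-gated and 114% in neutrophil-gated nuclei. Class levels are therefore levels of a gate, not of pure cells.

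Erythroid-gated nuclei had the most mitotic RNA per UMI of all classes in each of the 5 libraries where at least 20 such nuclei were found. Their summed mitotic genes were at 3097, 1570 and 993 CPM in RD no tumour 1 to 3 (120, 50 and 61 nuclei), 222 CPM in RD tumour 2 (32 nuclei) and 1691 CPM in WD tumour 2 (192 nuclei). The same libraries held 51.9, 18.5, 15.8, 27.2 and 171 CPM in hepatocyte-gated nuclei. In each library the erythroid-gated level was the higher one. RD tumour 1 had 0 erythroid-gated nuclei, and WD tumour 1 and 3 had 19 and 6.

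Single members show the same. Mki67 was at 429, 249 and 141 CPM in erythroid-gated nuclei of RD no tumour 1 to 3, 51.3 CPM in RD tumour 2 and 283 CPM in WD tumour 2, against 0.97 to 41.6 CPM in hepatocyte-gated nuclei of the 7 libraries. Top2a was at 741, 278 and 155 CPM in RD no tumour, at 0 UMIs in RD tumour 2, which allows up to 51.3 CPM (3 counts), and at 338 CPM in WD tumour 2. Diaph3 was at 412, 185 and 141 CPM, then 34.2 CPM, then 260 CPM. RD tumour 2 was the lowest of the 5 for each of these genes. Its erythroid-gated nuclei held only 58484 UMIs, so each of these values rests on at most 3 counts.

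Compared with hepatocyte-gated nuclei within the same 5 mice, 36 of 44 members tested were higher in erythroid-gated nuclei and 0 lower, against 7.05% of genes higher and 3.39% lower (edgeR quasi-likelihood test, Benjamini-Hochberg adjustment). This comparison was added after the class levels were seen. As in the other class comparisons, the low-count filter took both gates together, so a member could enter through the gate where it was high. Of the 21 mitotic members, 9 passed that filter in the comparison of cholangiocyte-gated with hepatocyte-gated nuclei. By role 9 of 11 S-phase, 21 of 21 mitotic, 5 of 10 G1/S and 1 of 2 inhibitor genes were higher in erythroid-gated nuclei. The median log2 difference was 5.13 for the mitotic and 2.49 for the S-phase members, against -0.19 for all genes. The kinesin Kif4 had the largest difference with 6.44 ± 0.43 (SE), then Top2a with 6.35 ± 0.30 and Diaph3 with 6.09 ± 0.29. The edgeR fit shares its estimate of spread across genes, so these SEs are not the spread of 1 gene between the 5 mice. Of 131 other cycle genes tested 94 were higher and 0 lower.

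Without RD no tumour 1 and WD tumour 2, 22 of 35 members tested were higher in erythroid-gated nuclei and 0 lower, against 2.74% of genes higher. When globins and other markers present in many nuclei also counted in the gate, it called 0 members and the erythroid-gated mitotic level had a median of 35.5 CPM over libraries, so the erythroid result rests on leaving those markers out.

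Macrophage-gated nuclei came next in members called. Their summed mitotic genes were at 254, 93.5 and 47.5 CPM in RD no tumour, 50.9 CPM in RD tumour 2, and 36.6, 372 and 35.8 CPM in WD tumour, and each value was above that of hepatocyte-gated nuclei of its library. In all, 22 of 45 members were higher and 3 lower (background 24.7% higher and 31.0% lower), with 15 of 21 mitotic genes among the higher ones. The largest differences were those of Kif23, a kinesin of the midbody, with 3.22 ± 0.43, Bub1b, a spindle checkpoint kinase, with 2.36 ± 0.36, and Cdkn2a with 2.30 ± 0.34. Of 134 other cycle genes 57 were higher and 10 lower. Without RD no tumour 1 and WD tumour 2, 12 of 32 members tested were higher and 2 lower, against 21.6% of genes higher.

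In endothelial-gated nuclei 18 of 44 members were higher and 3 lower (background 24.3% and 31.3%), with 10 of 20 mitotic genes among them. E2f7, a repressor of the E2F family, differed by 2.72 ± 0.49, Bub1b by 2.57 ± 0.40 and Kif4 by 2.21 ± 0.37. In T/NK-gated nuclei 17 of 39 were higher and 1 lower (background 16.7% and 21.5%), led by Ccnd2 with 2.83 ± 0.24, Diaph3 with 2.71 ± 0.38 and Top2a with 2.71 ± 0.37. Without RD no tumour 1 and WD tumour 2, 9 of 33 members tested were higher in T/NK-gated nuclei and 1 lower, against 12.2% of genes higher. Of other cycle genes, 41 of 125 were higher and 12 lower in endothelial-gated nuclei, and 33 of 105 were higher and 4 lower in T/NK-gated nuclei.

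Fewer members passed the test in stellate-, cholangiocyte- and B-gated nuclei, and the classes were not tested against each other. In stellate-gated nuclei 6 of 32 members were higher and 3 lower (background 25.4% and 30.7%), with 1 of 13 mitotic genes, Anln at 1.29 ± 0.44. Cdkn2a was higher there by 1.98 ± 0.36 and Ccnd2 by 1.73 ± 0.20. Cholangiocyte-gated nuclei had 1 of 26 members higher, Pola1 with 0.54 ± 0.17, and 1 lower (background 9.83% and 12.6%). B-gated nuclei, 33 to 128 per library, had 5 of 38 higher and 1 lower (background 11.1% and 18.6%), and 9 higher by DESeq2. The median log2 difference of their mitotic members was 1.27, with 15 of 16 above 0, against 1.35 in macrophage-gated and 0.75 in endothelial-gated nuclei. The B-gated calls were led by Mcm5 with 2.80 ± 0.91, Ccne1 (cyclin E1) with 2.55 ± 1.02 and Diaph3 with 1.81 ± 0.63. Mcm5 had only 6 UMIs and Ccne1 only 4 UMIs in B-gated nuclei over the 7 libraries, so both sizes are uncertain. Pola1 was higher than in hepatocyte-gated nuclei in all 7 classes tested.

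A few members were lower outside hepatocyte-gated nuclei. Cdkn1a was lower in 5 classes, with log2 differences from -0.25 in endothelial-gated to -0.71 in stellate-gated nuclei, and also in macrophage-, T/NK- and cholangiocyte-gated nuclei. Cdk4 and E2f8 were lower in endothelial-, stellate- and macrophage-gated nuclei, with the largest difference for E2f8 in stellate-gated nuclei at -1.25 ± 0.20. Cdk6 was lower in B-gated nuclei by -0.73 ± 0.22, and higher in T/NK- and macrophage-gated nuclei. E2f8 was higher in erythroid-gated nuclei.

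**Figure D4:**
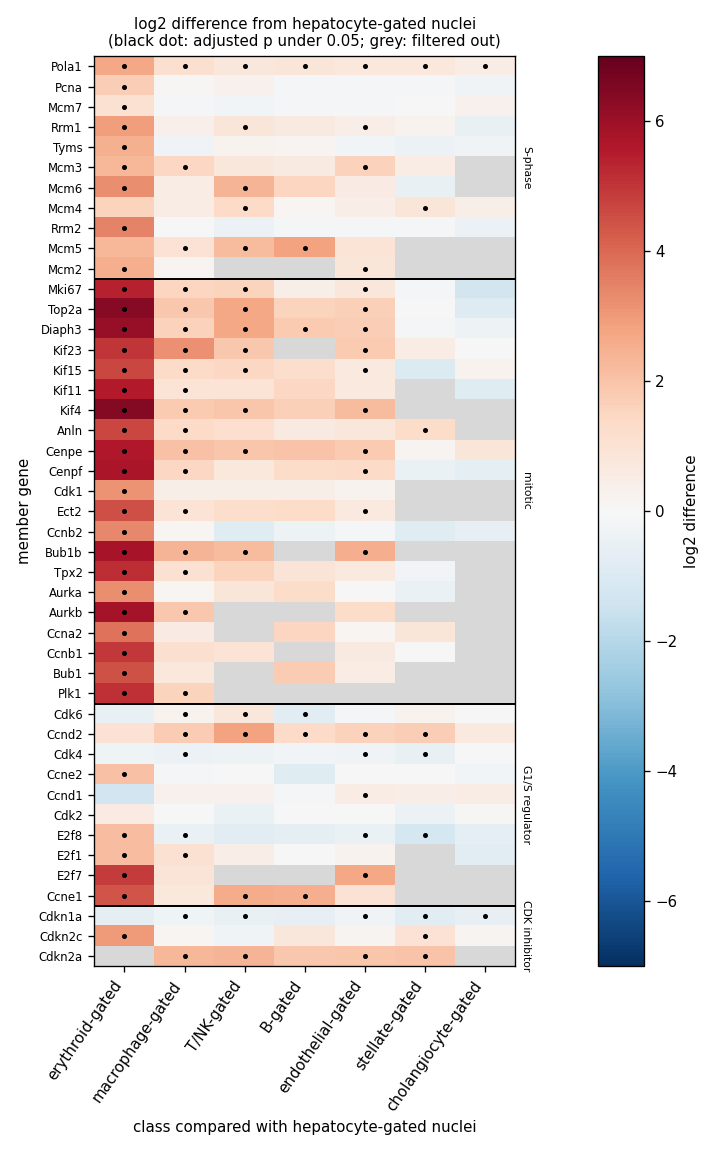
Log2 difference of each member (lines) between a gated class (columns) and hepatocyte-gated nuclei of the same mice, with red for higher, a black dot where the adjusted p is under 0.05 and grey where the gene did not pass the low-count filter. The erythroid column has dots for 36 of 44 members and the deepest red over the mitotic genes.

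The 3 high libraries were also high in hepatocyte-gated and stellate-gated nuclei, as levels of a gate and not as counts of dividing cells. WD tumour 2 had 171 CPM of mitotic genes in hepatocyte-gated nuclei, against 11.2 to 51.9 CPM in the other 6 of the 7 libraries, and 131 CPM in stellate-gated nuclei, against 13.1 to 66.0 CPM. RD tumour 1 had 647 to 808 CPM in each of its classes with at least 20 nuclei. Counted as a share of the mitotic UMIs of WD tumour 2, macrophage-gated nuclei held 50.6%, endothelial-gated 14.04%, erythroid-gated 12.9% and hepatocyte-gated 8.1%. The same gates held 2961, 853, 192 and 1566 of its 7068 nuclei, so a share also reflects the size of its gate. Macrophage-gated nuclei were at 372 CPM of mitotic genes in WD tumour 2, against 331 CPM in the whole library. In RD no tumour 1 macrophage-gated nuclei held 40.0%, neutrophil-gated 17.7% and erythroid-gated 11.2%, and these gates held 3374, 1656 and 120 of its 10275 nuclei.

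**Figure D5:**
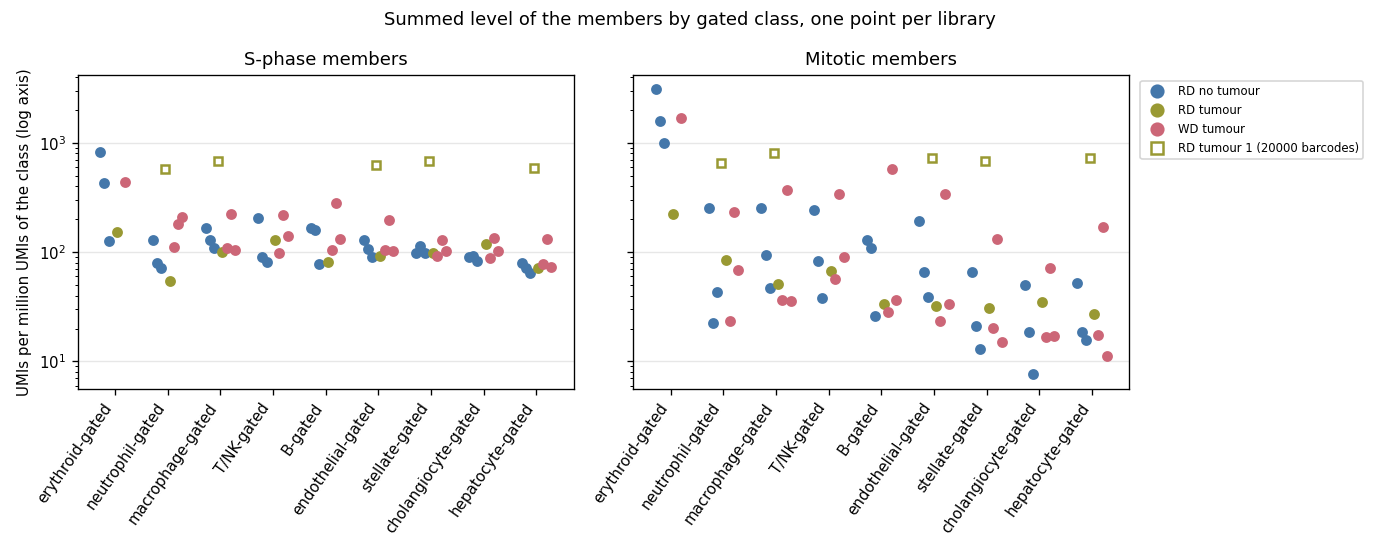
Summed level of the S-phase members (left) and mitotic members (right) in each gated class with at least 20 nuclei, in CPM on a log axis, with 1 point per library, colours for groups and RD tumour 1 as an open square. Erythroid-gated nuclei reach 3097 CPM of mitotic genes in RD no tumour 1, and the classes of RD tumour 1 lie between 647 and 808 CPM.

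Nuclei with UMIs of at least 3 different mitotic members were counted as carrying mitotic RNA. They were 2400 of 20000 in RD tumour 1, 435 (4.23%) in RD no tumour 1 and 298 (4.22%) in WD tumour 2, and 6 to 52 nuclei in the other 5 libraries. Of erythroid-gated nuclei 44.2%, 30.0% and 24.6% did so in RD no tumour 1 to 3, 28.1% in WD tumour 2 and 3.12% in RD tumour 2. Of macrophage-gated nuclei 4.59% did in RD no tumour 1 and 5.03% in WD tumour 2. Of hepatocyte-gated nuclei at most 0.89% did outside RD tumour 1, and 6.21% in RD tumour 1. In WD tumour 2 such nuclei held 16.9% of the mitotic UMIs of the hepatocyte gate and 28.9% of those of the stellate gate. In the whole library they held 65.8%. Outside them the mitotic level of WD tumour 2 was 143 CPM in hepatocyte-gated nuclei and 128 CPM in the library. In RD tumour 1 it was 539 and 460 CPM. The source of this RNA was not tested. The 49 such nuclei of RD tumour 2 had a median of 25740 UMIs, against 1120 for the library, and doublets were not removed from these counts.

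To compare shares across depths, each nucleus was thinned to 500 UMIs. The share with a mitotic UMI was then 27.8% and 2.04% in RD tumour, 7.66%, 1.97% and 1.56% in RD no tumour, and 1.35%, 13.5% and 1.21% in WD tumour. In hepatocyte-gated nuclei of WD tumour 2 the share was 13.2%, at a median depth of 923 UMIs against 1824 for the library, and in macrophage-gated nuclei it was 14.5%. At 500 UMIs the shares of these 2 classes were about alike in WD tumour 2, and are not read as expression. Erythroid-gated nuclei stood above that level with 35.9%. In RD no tumour 1 the shares were 3.20% in hepatocyte-gated, 8.62% in macrophage-gated and 51.7% in erythroid-gated nuclei. Thinning to 1000 UMIs left out the nuclei below that depth. The shares in WD tumour 2 were then 13.4% in hepatocyte-gated, 20.3% in macrophage-gated and 45.1% in erythroid-gated nuclei, so the likeness of the first 2 depends on the depth.

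Within classes, 0 genes passed the edgeR test between WD tumour and RD no tumour in hepatocyte-, endothelial-, stellate-, macrophage- or T/NK-gated nuclei (0.00% in each). Genes at an unadjusted p under 0.05 numbered 1333, 566, 572, 683 and 289, and DESeq2 called 222, 35, 35, 50 and 3 genes (1.49%, 0.254%, 0.302%, 0.357% and 0.0371%). Cdkn2c in hepatocyte-gated nuclei was the 1 member among them. Of the members, 27, 30, 11, 31 and 7 passed the filter on low counts. In hepatocyte-gated nuclei 3 of 27, Ccnd1, Cdkn2c and Pola1, had all WD tumour libraries above all RD no tumour libraries, against 8.16% of genes, and 0 had all below, against 5.92%. In the other classes at most 1 member did so in a direction: in macrophage-gated nuclei Cdkn2c higher (5.75% of genes) and Cdkn2a lower (3.99%), in endothelial-gated nuclei Cdk6 higher (6.20%), and in stellate-gated nuclei Cdk2 higher (8.55%) and Mcm7 lower (3.66%).

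Cdkn2c in hepatocyte-gated nuclei was at 19.5 and 3.09 CPM in RD tumour, 3.88, 2.03 and 1.21 CPM in RD no tumour, and 8.31, 5.95 and 10.1 CPM in WD tumour. The log2 difference between WD tumour and RD no tumour was 1.83 ± 0.47 (SE) with an edgeR adjusted p of 0.376 and a DESeq2 adjusted p of 0.0258. It was 1.48 to 2.29 with any 1 library left out, and 1.60 in nuclei with at most 5% mitochondrial UMIs. Ccnd1 was at 28.6 and 8.19 CPM in RD tumour, 5.17, 2.74 and 3.52 CPM in RD no tumour, and 11.1, 9.34 and 7.59 CPM in WD tumour. Its log2 difference was 1.29 ± 0.34 (edgeR adjusted p 0.386), and 0.91 with at most 5% mitochondrial UMIs. Hepatocyte-gated nuclei had a median of 923 to 1020 UMIs in WD tumour and 2652 to 4525 in RD no tumour, and a median mitochondrial share of 5.23% to 11.2% against 0.89% to 1.90%. The part of depth in these values was not tested.

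Cdkn2a in macrophage-gated nuclei was at 7.93, 8.04 and 7.11 CPM in RD no tumour, 5.29 CPM in RD tumour 2, 0.38 CPM in RD tumour 1, and 1.45, 3.94 and 0.53 CPM in WD tumour. All RD no tumour values were higher than all WD tumour values. The log2 difference of WD tumour against RD no tumour was -1.81 ± 0.58 with an edgeR adjusted p of 0.911. Over 13 alternatives it lay between -3.00, with WD tumour 2 left out, and -1.42, with WD tumour 3 left out.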

How the data were processed

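The authors deposited raw UMI counts per gene and barcode for 8 libraries, made with Cell Ranger 7.0.0 on build mm10 per the submitters' processing notes; whether intronic reads were counted is not given in the sources used here. Barcodes with at least 300 genes were kept. A nucleus was gated to the non-hepatocyte class with most of its markers detected, at least 2 and with no tie, or else to hepatocytes with at least 3; 7 of 138 markers, detected in at least 25% of nuclei in the median of 7 libraries, were not counted, a choice made after the gates were seen. Counts were summed per library, or per library and class of at least 20 nuclei, and tested with edgeR 4.0.16 (R 4.3.3; TMM, filterByExpr, quasi-likelihood F test, Benjamini-Hochberg over all genes tested, threshold 0.05). Classes were compared with hepatocyte-gated nuclei with the mouse as a block. Standard errors were derived from the F statistic. The tests were run on simulated data. DESeq2 1.42.0, other filters, gates, mitochondrial limits, scaling and each library left out were alternatives. Doublets were kept; an alternative removed the highest Scrublet scores (scanpy 1.11.5), 0.8% per 1000 barcodes. Intervals and floors cover counting error only.

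RD tumour 1 entered neither the comparison of WD tumour with RD no tumour nor the class comparisons. Values are given in every library for the 3 members of each role with the highest mean level and the 3 with the largest difference. For each class they are the 3 with the largest difference. The members, lists and markers were chosen with earlier results of these data known. Overlapping genes (Anln on the same strand, 11 members on the opposite strand) and named pseudogenes can share reads.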

Additional observations from a re-analysis of the deposited data

How the results depend on the processing

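No group comparison between WD tumour and RD no tumour called a member under any alternative run, except Cdkn2c in hepatocyte-gated nuclei with DESeq2. In whole libraries DESeq2 in place of edgeR called 152 genes (WD tumour against RD no tumour), 64 genes (RD tumour against RD no tumour) and 109 genes (WD tumour against RD tumour). Within classes it called 222 genes in hepatocyte-gated (1 member), 35 in endothelial-gated, 35 in stellate-gated, 50 in macrophage-gated and 3 in T/NK-gated nuclei. With no filter on low counts, 1 gene was called in hepatocyte-gated and 38 in T/NK-gated nuclei, and with all markers in the gate 42 in hepatocyte-gated nuclei. With 1 library left out, edgeR called 0 to 2 genes for WD tumour against RD no tumour, 0 to 4569 genes and 0 to 10 members for RD tumour against RD no tumour, and 0 to 4438 genes and 0 to 8 members for WD tumour against RD tumour. Within classes the ranges were 0 to 4 genes in hepatocyte-gated and 0 to 2 in endothelial-, stellate- and T/NK-gated nuclei. Where 1 library stood for RD tumour, it was assumed to vary like the other groups.

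With 1 library left out, the log2 difference of WD tumour against RD no tumour ranged from -0.27 to 0.97 for Rrm2, -0.034 to 1.06 for Mcm3, -0.10 to 0.72 for Rrm1, -1.85 to 2.25 for Ccnb1, -2.55 to 1.76 for Mki67, -1.85 to 1.62 for Cdk1 and -0.75 to 1.16 for Ccnd2, each lowest without WD tumour 2. Without RD no tumour 1 and WD tumour 2, 1 gene was called, and Rrm2 turned to -0.089, Mki67 to -1.41, Cdk1 to -0.83 and Ccnd2 to -0.10. The difference of RD tumour from RD no tumour ranged from -1.85 to 3.33 for Mki67, -1.08 to 4.25 for Cdk1 and -0.71 to 3.75 for Mcm5, lowest without RD tumour 1. That of WD tumour from RD tumour ranged from -4.74 to 2.51, -5.10 to 1.71 and -4.20 to 1.02, highest without RD tumour 1. The cause of these reversals was not tested. Replicate numbers were not taken to pair the mice. Deviations of same-numbered WD tumour and RD no tumour libraries correlated at -0.61, -0.50 and 0.42. These values cannot decide whether mice were paired, since each group has 3 libraries and 1 of them is high. With the replicate number as a block, 0 genes were called, and Ccnb1 turned to -0.14 and Mki67 to -0.93.

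Against hepatocyte-gated nuclei, counting all markers in the gate left 5124 genes and 8 members called in endothelial-gated, 3816 and 3 in stellate-gated, 5845 and 11 in macrophage-gated, 2903 and 5 in T/NK-gated, 1283 and 0 in cholangiocyte-gated, 1763 and 0 in B-gated and 25 and 0 in erythroid-gated nuclei, where Diaph3 turned to -0.12. That gate left the median erythroid-gated level at 81.6 CPM for S phase and 35.5 CPM for mitosis, and a gate of at least 3 markers gave 776 and 3227 CPM. The 3-marker gate also gave 147 CPM of S-phase genes in cholangiocyte-gated nuclei and called 4 members there and 3 in B-gated nuclei. For cholangiocyte-gated nuclei DESeq2, no filter and doublet removal called 1 member each. Without RD no tumour 1 and WD tumour 2, 14 members were called in macrophage-gated, 10 in T/NK-gated, 0 in cholangiocyte-gated and 2 in B-gated nuclei, and 375 genes with 22 members in erythroid-gated nuclei. With 1 library left out, erythroid-gated nuclei had 643 to 1339 genes called. Not thinned, the mean share of nuclei with a mitotic UMI was 13.95% (WD tumour) against 11.2% (RD no tumour). The gate does not apply to whole-library sums. Depth limits the low members: a member with few UMIs in a class could not be tested there.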
